A study of Mus musculus with 9 samples.

Results

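The genes described here are 10 genes that the nuclear receptor Ppara induces in mouse liver and that lie outside the core enzymes of fatty acid beta-oxidation: Acot2, Acot3, Acot4, Abcd2, Cyp4a14, Vnn1, Pdk4, Fgf21, Angptl4 and Creb3l3. They were chosen by name, with earlier results of these data known. All 10 were measured, each by 1 probe set annotated with that symbol alone, among 19938 genes with such a probe set. Ppara is switched on by fatty acids. During a fast, when adipose tissue sends fatty acids to the liver, it pairs with Rxra, binds DNA and raises genes that carry, activate, oxidize or hydrolyse fatty acids, as well as genes for hormones and regulators that spread the fasting signal to other tissues. The ob/ob mice in which they were measured lack the appetite hormone leptin and are obese with a fatty liver.

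RNA from liver was measured on 9 arrays of the type Affymetrix Mouse Gene 1.0 ST, 3 for each of 3 groups, and the labels call the arrays of a group biological replicates. OB-TUDCA mice were obese males of genotype ob/ob (strain label B6.V-Lepob/J) that received tauroursodeoxycholic acid (TUDCA), a taurine-conjugated bile acid, by gavage at 500 mg/kg 2 times a day for 3 weeks. OB-control mice had the same genotype and strain and received tap water in the same way, and N-control mice were wild-type C57BL/6J littermates that also received tap water. Mice were 6 weeks old when bought, were fed normal chow ad libitum, and all were killed after 8 h of fasting, so every group had been fasted and none was fed. The study kept 6 mice in each group, and the labels do not say which of them the arrays stand for. Comparing OB-TUDCA with OB-control asks what the bile acid did in obese mice, and comparing OB-control with N-control asks what the obese genotype did.

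Values are log2 signals from RMA, a method that corrects the background, gives the arrays the same distribution and sums up the probes of a probe set, so a difference of 1 stands for a 2-fold difference in signal. Differences were tested two-sided with limma, a linear fit that shares information on the spread across genes, and p-values were adjusted by the method of Benjamini and Hochberg over all 19938 genes with a threshold of 0.05. RNA of whole liver cannot tell fewer cells of a type from less RNA per cell. The 5 measured hepatocyte markers averaged 12.8 to 12.9 in OB-TUDCA livers, 12.8 to 12.9 in OB-control livers and 13.0 to 13.1 in N-control livers, and none passed the test in any comparison. Of 33 measured markers in 8 lists for other cells and tissues than hepatocytes and pancreas, none passed between OB-TUDCA and OB-control or between OB-control and N-control. In OB-TUDCA against N-control, the endothelial marker Lyve1 was higher by 2.44 (adjusted p = 0.0110, limma), while Kdr, also endothelial, fell by 1.17 (adjusted p = 0.0218) and Alas2 of red blood cells fell by 0.85 (adjusted p = 0.0152). All of these calls were lost without OB-TUDCA replicate 2 (0.0578 for Lyve1), that of Alas2 also without N-control replicate 2, and that of Kdr also without any 1 N-control array or OB-TUDCA replicate 3. The 5 endothelial markers together averaged 7.49 to 7.55 in OB-TUDCA livers, 7.19 to 7.54 in OB-control livers and 7.28 to 7.39 in N-control livers. The part of these markers in the differences below was not tested. The 9 measured markers of pancreatic acinar cells, which make digestive enzymes, averaged 11.0 in N-control replicate 2 and 4.11 to 4.79 on the other 8 arrays, so calls against the N-control group that were lost without that array are named as such. Arrays of the same group correlated at r = 0.981 to 0.990 over all probe sets, and arrays of different groups at 0.976 to 0.987.

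The thioesterases Acot3 and Acot4 and the peroxisomal transporter Abcd2 were higher in obese mice, treated or not, than in lean mice, by 2.52 to 3.04 fold. These genes passed the test in both obese groups, but every such call was lost without some single array. Without N-control replicate 2, the array with the acinar signal, none of these genes passed in OB-control, and Acot4 alone passed in OB-TUDCA. As compared to the OB-control group, none of the 10 genes passed the test in the OB-TUDCA group. The largest difference there was that of Pdk4, 2.84 fold higher in OB-TUDCA livers, and it was within what the wide spread of this gene allows. The 10 genes varied between arrays of the same group more than most genes do, and in the lean group they varied together.

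The Acot genes encode acyl-CoA thioesterases, which split a fatty acyl-CoA into the free fatty acid and coenzyme A. Acot2 acts in mitochondria on long-chain acyl-CoA. Acot3 and Acot4 act in peroxisomes, and Acot4 splits the CoA esters of dicarboxylic acids, succinyl-CoA among them. On mouse chromosome 12 the RefSeq genes stand in the order Riox1, Acot2, Acot1, Gm40474, Acot4, Acot3, Acot5, Gm8385, Acot6 and Dnal1, so the 3 genes described here share a cluster with 3 other thioesterases. These genes are close relatives. Whether a probe set also catches a neighbour's RNA could not be examined, and their values are uncertain to that degree.

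The promoter windows of the 3 clustered genes are shown because they are near relatives and neighbours with differences from N-control of like size. Each window holds the 250 bases before the RefSeq start base and the 50 bases from it on (assembly GRCm38.p6, plus strand), written in lower case with matches to the letters searched in capitals.
Acot2, chr12:83987611-83987910: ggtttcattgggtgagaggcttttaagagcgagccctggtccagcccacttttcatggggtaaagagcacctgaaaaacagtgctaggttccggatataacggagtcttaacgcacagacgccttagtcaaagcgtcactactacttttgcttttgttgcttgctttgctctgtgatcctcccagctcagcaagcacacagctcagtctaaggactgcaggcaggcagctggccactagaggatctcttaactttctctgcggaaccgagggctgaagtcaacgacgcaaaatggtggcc
Acot4, chr12:84038129-84038428: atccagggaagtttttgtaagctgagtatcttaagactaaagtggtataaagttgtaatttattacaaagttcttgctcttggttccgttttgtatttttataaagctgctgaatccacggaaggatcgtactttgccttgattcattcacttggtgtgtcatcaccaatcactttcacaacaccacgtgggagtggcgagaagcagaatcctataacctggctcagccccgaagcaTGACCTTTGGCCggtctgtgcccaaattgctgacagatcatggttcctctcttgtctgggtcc
Acot3, chr12:84051894-84052193: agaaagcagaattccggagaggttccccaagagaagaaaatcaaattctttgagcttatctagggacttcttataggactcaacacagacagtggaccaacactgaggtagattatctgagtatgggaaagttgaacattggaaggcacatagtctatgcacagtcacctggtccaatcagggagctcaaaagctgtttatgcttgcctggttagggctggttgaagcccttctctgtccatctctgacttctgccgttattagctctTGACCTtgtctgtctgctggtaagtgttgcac
The letters searched on both strands were those of the DNA element to which Ppara and Rxra bind, a direct repeat with 1 base between its copies. The single copy AGGTCA stands in 16.3% of 32851 such windows, and 2 copies of it with any 1 base between them stand in 0.0396%. A looser form, 2 copies of AGGNCA with 1 base between them and the first A left out, stands in 0.801%, and these forms overlap. The Acot4 window holds the looser form on the minus strand, TGACCTTTGGCC, from 13 to 2 bases before the start base, and its first 6 letters are also the single copy. The Acot3 window holds the single copy alone, also on the minus strand, from 18 to 23 bases after the start base. The Acot2 window holds none of the 3 forms. The single copy also stands in windows of Creb3l3 and of the neighbour Acot5 (2 times), and neither gene passed the test. The letters were chosen with these windows in view, and a match is a description of letters. The table had windows for 6 of the 10 genes.

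Acot4 read 9.39, 9.32 and 9.16 in OB-TUDCA livers, 9.64, 9.16 and 9.47 in OB-control livers, and 7.51, 7.99 and 8.34 in N-control livers (replicates 1, 2 and 3). Every obese liver was above every lean one, and the 2 obese groups overlapped. The difference was 1.48 (SE 0.20, adjusted p = 0.0107, limma), or 2.79 fold, in the OB-control group as compared to the N-control group. In the OB-TUDCA group it was 1.34 (SE 0.20, adjusted p = 0.00961, limma), or 2.54 fold. Between OB-TUDCA and OB-control it was -0.14, with a 95% confidence interval of -0.58 to 0.31. Of the 3 genes called, Acot4 lost its calls on leaving out the fewest arrays. Its call between OB-control and N-control was lost without N-control replicate 2 (adjusted p = 0.0518) or OB-control replicate 1 (adjusted p = 0.0639), and its call between OB-TUDCA and N-control without OB-TUDCA replicate 2 alone (adjusted p = 0.0508).

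Acot3 read 7.49, 7.44 and 6.92 in OB-TUDCA livers, 7.73, 7.46 and 7.17 in OB-control livers, and 5.27, 5.80 and 6.48 in N-control livers. The groups of obese and lean mice did not overlap, and within the lean group the signal ranged over 1.20. OB-control exceeded N-control by 1.61 (SE 0.29, adjusted p = 0.0391, limma), or 3.04 fold, and OB-TUDCA exceeded N-control by 1.43 (SE 0.29, adjusted p = 0.0290), or 2.70 fold. OB-TUDCA differed from OB-control by -0.17, with an interval of -0.81 to 0.47. The first call was lost when any 1 array other than N-control replicate 3 was left out (adjusted p = 0.0535 to 0.172). The second was lost without N-control replicate 1 (0.0937) or 2 (0.0919), or OB-TUDCA replicate 1 (0.0735) or 2 (0.118).

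Acot2 had 7.96, 8.48 and 9.31 in OB-TUDCA livers, 8.64, 7.51 and 9.51 in OB-control livers, and 6.82, 6.68 and 7.47 in N-control livers. Here too each obese liver lay above each lean one, but the lowest obese liver, OB-control replicate 2, was close to the highest lean one, N-control replicate 3. The differences were of similar size to those of Acot3 and Acot4, 1.57 for OB-control against N-control and 1.60 for OB-TUDCA against N-control. With an SE of 0.49 they did not pass (adjusted p = 0.214 and 0.123, limma). OB-TUDCA and OB-control differed by 0.03, and the interval, -1.07 to 1.13, left room for a change of more than 2 fold in either direction.

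The nearest relatives of these genes on chromosome 12 gave smaller differences. Acot1, the cytosolic enzyme, read 7.11, 7.65 and 7.86 in OB-TUDCA livers, 6.83, 6.56 and 7.57 in OB-control livers, and 5.97, 6.32 and 7.23 in N-control livers, with all groups overlapping their neighbour in level. Its difference from N-control was 1.03 in OB-TUDCA (SE 0.35, adjusted p = 0.163, limma) and 0.48 in OB-control (adjusted p = 0.650). Acot6 was higher in OB-control than in N-control by 0.57 without overlap (adjusted p = 0.193). Acot5 was higher by 0.28, also without overlap (adjusted p = 0.409). Of all genes, 8.49% were higher without overlap in this comparison. For Acot5 the groups were barely apart, with 3.193 as the highest N-control value and 3.196 as the lowest OB-control value. Every Acot5 value was also below the median of all probe sets on its array. Over the 10 other acyl-CoA thioesterases listed, the mean of every gene was above that of N-control in OB-control livers, against 57% of all genes. Their median difference was 0.33, and none passed the test. The smallest p among them was that of the mitochondrial Acot9, which read 6.31, 6.86 and 7.55 in OB-TUDCA livers and 5.82, 5.85 and 5.63 in N-control livers, a difference of 1.14 (adjusted p = 0.0523).

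Abcd2 encodes a transporter in the peroxisomal membrane that brings very-long-chain and polyunsaturated fatty acyl-CoA into the organelle. It read 8.69, 8.51 and 8.93 in OB-TUDCA livers, 8.53, 9.25 and 8.60 in OB-control livers, and 7.16, 7.11 and 7.86 in N-control livers. Again all 6 obese livers were above all 3 lean livers. OB-control was higher than N-control by 1.42 (SE 0.24, adjusted p = 0.0330, limma), or 2.67 fold, and OB-TUDCA was higher than N-control by 1.33 (SE 0.24, adjusted p = 0.0203), or 2.52 fold. OB-TUDCA differed from OB-control by -0.08, with an interval of -0.62 to 0.46. The call between OB-control and N-control was kept without N-control replicate 3 or OB-control replicate 2 and lost without any 1 of the other 7 arrays (adjusted p = 0.0538 to 0.139). The call between OB-TUDCA and N-control was lost without N-control replicate 1 (0.0944) or 2 (0.0756), or OB-TUDCA replicate 2 (0.0601) or 3 (0.0712).

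Abcd3, a related transporter of the same membrane, had smaller differences. It averaged 11.2 in OB-TUDCA livers, 11.4 in OB-control livers and 11.3 in N-control livers, and it differed from N-control by -0.05 in OB-TUDCA (interval -0.37 to 0.26) and by 0.12 in OB-control (interval -0.19 to 0.43). Of 17 listed peroxisomal transporters and peroxins, the proteins that build peroxisomes, 13 were measured. None passed the test in any comparison. The OB-control mean was above the N-control mean for 12 of the 13, against 57% of all genes, with a median difference of 0.24. Pex16 had the smallest p, with 9.36, 9.55 and 9.34 in OB-TUDCA livers, 9.49, 9.53 and 9.67 in OB-control livers, and 8.49, 8.95 and 9.19 in N-control livers (OB-control against N-control 0.69, adjusted p = 0.100).

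**Figure D1:**
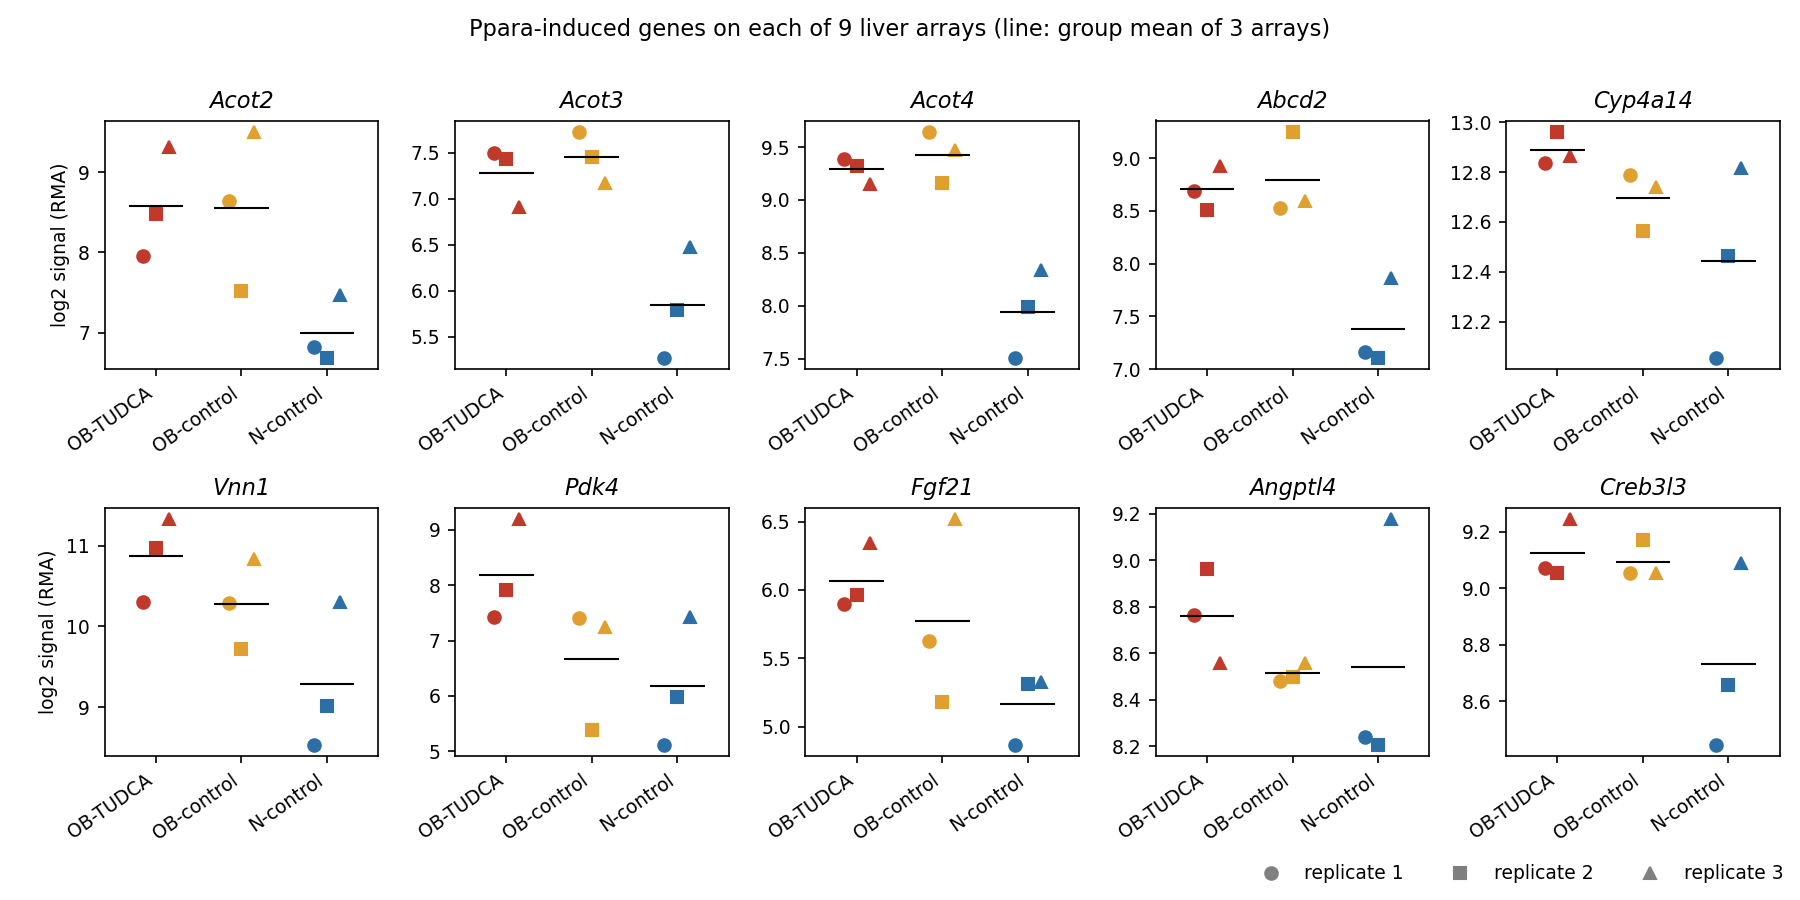
Log2 RMA signal (vertical axes, each panel with its own range) of the 10 Ppara-induced genes on each array of the OB-TUDCA, OB-control and N-control groups, with replicates 1, 2 and 3 as circles, squares and triangles and the mean of 3 arrays as a line. Acot2, Acot3, Acot4 and Abcd2 were higher on all 6 arrays of obese mice than on the 3 N-control arrays, and N-control replicate 3 was the highest of its group for all 10 genes.

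Cyp4a14 is a cytochrome P450 of the endoplasmic reticulum that oxidizes the omega end of fatty acids, a step toward dicarboxylic acids. Its signal was 12.84, 12.96 and 12.86 in OB-TUDCA livers, 12.79, 12.56 and 12.74 in OB-control livers, and 12.06, 12.46 and 12.82 in N-control livers. The OB-TUDCA arrays lay above the arrays of both other groups by a narrow margin, while OB-control overlapped N-control. None of its differences passed the test. OB-TUDCA exceeded OB-control by 0.19 (SE 0.16, 95% interval -0.18 to 0.56, adjusted p = 0.705, limma), and OB-TUDCA exceeded N-control by 0.44 (adjusted p = 0.193).

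The calls among other omega-hydroxylases were toward lower signal. Of 12 listed, 8 were measured. As compared to N-control, 3 fell in OB-TUDCA, against 1.89% of all genes, while none rose, against 1.35%. This count was 1 without N-control replicate 2 and 5 without OB-TUDCA replicate 1. Cyp4a12b read 9.14, 9.18 and 8.96 in OB-TUDCA livers, 10.22, 9.49 and 9.75 in OB-control livers, and 11.07, 11.72 and 11.45 in N-control livers, so that the 3 groups did not overlap. It fell by 2.32 in OB-TUDCA (SE 0.20, adjusted p = 0.000877) and by 1.59 in OB-control (adjusted p = 0.00834) as compared to N-control, and both calls were kept without any 1 array. Cyp4a12a, a near copy of Cyp4a12b whose probe set may catch the same RNA, averaged 9.45 in OB-TUDCA livers, 9.61 in OB-control livers and 11.45 in N-control livers and fell in both obese groups (adjusted p = 0.0169 and 0.0454). Its first call was lost without N-control replicate 2 (adjusted p = 0.0650), and the second was kept without OB-TUDCA replicate 1 and lost without any 1 of the other 8 arrays (0.0695 to 0.160). Cyp4b1 fell by 0.70 in OB-TUDCA as compared to N-control (adjusted p = 0.0168), a call lost on leaving out replicate 2 of N-control or replicate 2 or 3 of OB-TUDCA (0.0536 to 0.0730). Cyp4a10, a fellow target of Ppara, overlapped in all groups, with a difference of 0.46 between OB-control and N-control (adjusted p = 0.490).

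Vnn1 encodes vanin-1, an enzyme anchored to the cell surface that splits pantetheine into pantothenic acid, the vitamin from which coenzyme A is made, and cysteamine. It read 10.30, 10.98 and 11.33 in OB-TUDCA livers, 10.29, 9.72 and 10.84 in OB-control livers, and 8.53, 9.02 and 10.30 in N-control livers. Each OB-TUDCA array was above each N-control array, but OB-TUDCA replicate 1 and N-control replicate 3 were equal to 2 decimals. The mean difference from N-control was 1.59 in OB-TUDCA (SE 0.45, adjusted p = 0.102, limma) and 0.996 in OB-control (adjusted p = 0.420), and neither passed. Without N-control replicate 3, the first was 2.09 with an adjusted p of 0.0314. Between OB-TUDCA and OB-control the difference was 0.59, with an interval of -0.43 to 1.61.

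Among 12 listed genes of pantetheine hydrolysis and coenzyme A synthesis and breakdown, Nudt7 alone passed. Nudt7 encodes a peroxisomal enzyme that degrades coenzyme A. It read 8.61, 8.78 and 8.25 in OB-TUDCA livers, 9.36, 8.70 and 9.36 in OB-control livers, and 10.92, 10.67 and 9.78 in N-control livers. Nudt7 fell by 1.91 in OB-TUDCA as compared to N-control (SE 0.29, adjusted p = 0.0112), a call lost without N-control replicate 2 (0.0508), and its difference in OB-control was -1.32 (adjusted p = 0.0923). Vnn3, the relative of Vnn1, was higher than in N-control by 0.27 in OB-TUDCA and 0.29 in OB-control, and neither passed (adjusted p = 0.231 and 0.307).

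Pdk4 encodes a kinase that switches off the pyruvate dehydrogenase complex, which spares glucose while fatty acids are burned. Pdk4 read 7.43, 7.91 and 9.20 in OB-TUDCA livers, 7.40, 5.38 and 7.24 in OB-control livers, and 5.12, 5.98 and 7.43 in N-control livers. All OB-TUDCA arrays were above all OB-control arrays, but OB-TUDCA replicate 1 was barely above OB-control replicate 1, and OB-control replicate 2 was as low as the lower N-control arrays. The difference between OB-TUDCA and OB-control was 1.51 (SE 0.71, 95% interval -0.08 to 3.10, unadjusted p = 0.0607, adjusted p = 0.439, limma). Without OB-control replicate 2 it was 0.86 (adjusted p = 0.692), and without OB-TUDCA replicate 3 it was 0.995 (adjusted p = 0.657). Against N-control, OB-TUDCA differed by 2.01, or 4.01 fold (adjusted p = 0.172), and OB-control by 0.50 (interval -1.09 to 2.09, adjusted p = 0.838). Of the 10 genes, Pdk4 had the widest spread, a pooled SD within groups of 1.07, which is larger than that of 99.8% of all genes. The 11 listed subunits, kinases and phosphatases of pyruvate dehydrogenase other than Pdk4 were all measured and none passed, with median differences of -0.04 for OB-TUDCA against OB-control and 0.02 for OB-control against N-control. The smallest p among them was that of the subunit Pdha1, 0.36 higher in OB-TUDCA than in N-control (adjusted p = 0.0915).

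Fgf21 encodes a hormone that the fasted liver releases and that acts on other tissues through Fgf receptors and the co-receptor Klb. Its signal was 5.90, 5.96 and 6.34 in OB-TUDCA livers, 5.63, 5.18 and 6.52 in OB-control livers, and 4.87, 5.31 and 5.32 in N-control livers. OB-TUDCA arrays were all above N-control arrays, and OB-control arrays reached from below the highest N-control array to above all others. OB-TUDCA differed from N-control by 0.90 (SE 0.30, adjusted p = 0.149, limma), which passed only without OB-control replicate 3 (adjusted p = 0.0420). OB-control differed from N-control by 0.61 (adjusted p = 0.459), and OB-TUDCA from OB-control by 0.29 (interval -0.38 to 0.96, adjusted p = 0.758). None of the 5 listed Fgf21 receptors passed. Klb averaged 8.07 in OB-TUDCA, 8.36 in OB-control and 8.52 in N-control livers, and the smallest p was that of Fgfr2, which differed by -0.79 between OB-TUDCA and N-control (adjusted p = 0.124).

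Angptl4, a secreted inhibitor of lipoprotein lipase, had the smallest difference between OB-control and N-control. It read 8.76, 8.96 and 8.56 in OB-TUDCA livers, 8.48, 8.50 and 8.56 in OB-control livers, and 8.24, 8.21 and 9.18 in N-control livers. The highest and the lowest of all 9 arrays both belonged to the N-control group. OB-TUDCA differed from OB-control by 0.25 (SE 0.23, interval -0.27 to 0.77, adjusted p = 0.728, limma) and from N-control by 0.22 (adjusted p = 0.674). OB-control differed from N-control by -0.03 (interval -0.55 to 0.49), and by 0.29 without N-control replicate 3 (adjusted p = 0.374). Of 8 other angiopoietin-like proteins and lipases listed, 6 were measured and none passed, the smallest p being that of Gpihbp1, which anchors lipoprotein lipase to the vessel wall (0.46 higher in OB-TUDCA than in N-control, adjusted p = 0.159).

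Creb3l3 encodes CREB-H, a transcription factor held in the membrane of the endoplasmic reticulum of hepatocytes, which is cut free in a fast and acts with Ppara on Fgf21 and on apolipoprotein genes. It read 9.07, 9.05 and 9.25 in OB-TUDCA livers, 9.05, 9.17 and 9.05 in OB-control livers, and 8.45, 8.66 and 9.09 in N-control livers. Only N-control replicate 3 reached the level of the obese mice, where the 6 arrays lay close together. The differences from N-control were 0.39 in OB-TUDCA (SE 0.15, adjusted p = 0.193, limma) and 0.36 in OB-control (SE 0.15, adjusted p = 0.356). Without N-control replicate 3, the OB-TUDCA difference was 0.57 and passed (adjusted p = 0.0314). OB-TUDCA and OB-control differed by 0.03 (interval -0.30 to 0.36).

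Apoa4, an apolipoprotein gene that CREB-H activates, read 11.90, 12.57 and 12.74 in OB-TUDCA livers, 12.52, 11.24 and 12.69 in OB-control livers, and 10.05, 10.21 and 10.10 in N-control livers. All obese livers were above all lean ones by more than the spread within the lean group. Apoa4 rose by 2.28 in OB-TUDCA (SE 0.35, adjusted p = 0.0112, limma) and by 2.03 in OB-control (adjusted p = 0.0346) as compared to N-control. The first call was lost without N-control replicate 1 or OB-TUDCA replicate 2 (0.0521 to 0.0579), and the second was kept without OB-control replicate 2 or OB-TUDCA replicate 1 and lost without any 1 of the other 7 arrays (0.0556 to 0.156). It was the one gene past the test among the 8 measured of 9 relatives and targets of Creb3l3 listed.

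As compared to the OB-control group, none of the 10 genes was called higher or lower in the OB-TUDCA group by limma, where 0.115% of all genes were called higher and 0.186% lower. None reached an unadjusted p under 0.05 either, by limma or by a t-test. By limma, 6.26% of all genes were higher and 5.72% lower at that p. The study's methods name a t-test, but its array genes were selected by SAM and fold change. The arrays of the groups did not overlap for Cyp4a14 and Pdk4, 2 of 10 genes, with OB-TUDCA higher in both, against 7.26% of all genes higher and 6.53% lower without overlap. The mean was higher in OB-TUDCA for 7 genes, against 53.6% of all genes, and lower for Acot3, Acot4 and Abcd2, against 46.3%. The median difference over the 10 genes was 0.11, beside 0.01 over all genes. These genes have a median SE of 0.26, against 0.11 over all genes, so the same difference is harder to detect in them.

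As compared to the N-control group, 3 of 10 genes were called higher in the OB-control group, Acot3, Acot4 and Abcd2, against 0.456% of all genes, and none was called lower, against 0.492%. At an unadjusted p under 0.05, 5 genes were higher (Acot2 and Creb3l3 in addition) and none lower, against 6.55% and 5.59% of all genes. The arrays did not overlap for 4 genes, all higher, against 8.49% of all genes higher and 6.77% lower without overlap. The mean was higher for all but Angptl4, against 57% of all genes higher and 42.9% lower. The median difference over the 10 genes was 0.80, beside 0.02 over all genes. Acot2, Acot3, Acot4 and Abcd2 are in the list of genes that the study selected as differing between OB-control and N-control on these same arrays, and a direction chosen in this way is no independent evidence.

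The OB-TUDCA group, set against the same N-control arrays, had the same count, 3 of 10 genes called higher (Acot3, Acot4 and Abcd2) beside 1.35% of all genes, and none lower, beside 1.89%. At an unadjusted p under 0.05, 9 genes were higher, all but Angptl4, and none lower, against 10.4% and 8.15% of all genes. For 7 genes the arrays did not overlap (Acot2, Acot3, Acot4, Abcd2, Cyp4a14, Vnn1 and Fgf21), all higher, against 11.8% of all genes higher and 8.95% lower. The mean was higher for all 10, against 59.6% of all genes higher and 40.3% lower, and the median difference was 1.34, beside 0.04 over all genes. This comparison shares its N-control arrays with the previous one. With 3 arrays against 3, an exact permutation test of a single gene cannot give a two-sided p below 0.1. Without N-control replicate 2, the array with the acinar signal, the differences of Acot3, Acot4 and Abcd2 from N-control were 1.58, 1.50 and 1.28 in OB-control, none past the threshold, and 1.41, 1.36 and 1.20 in OB-TUDCA, where Acot4 passed (adjusted p = 0.0398).

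**Figure D2:**
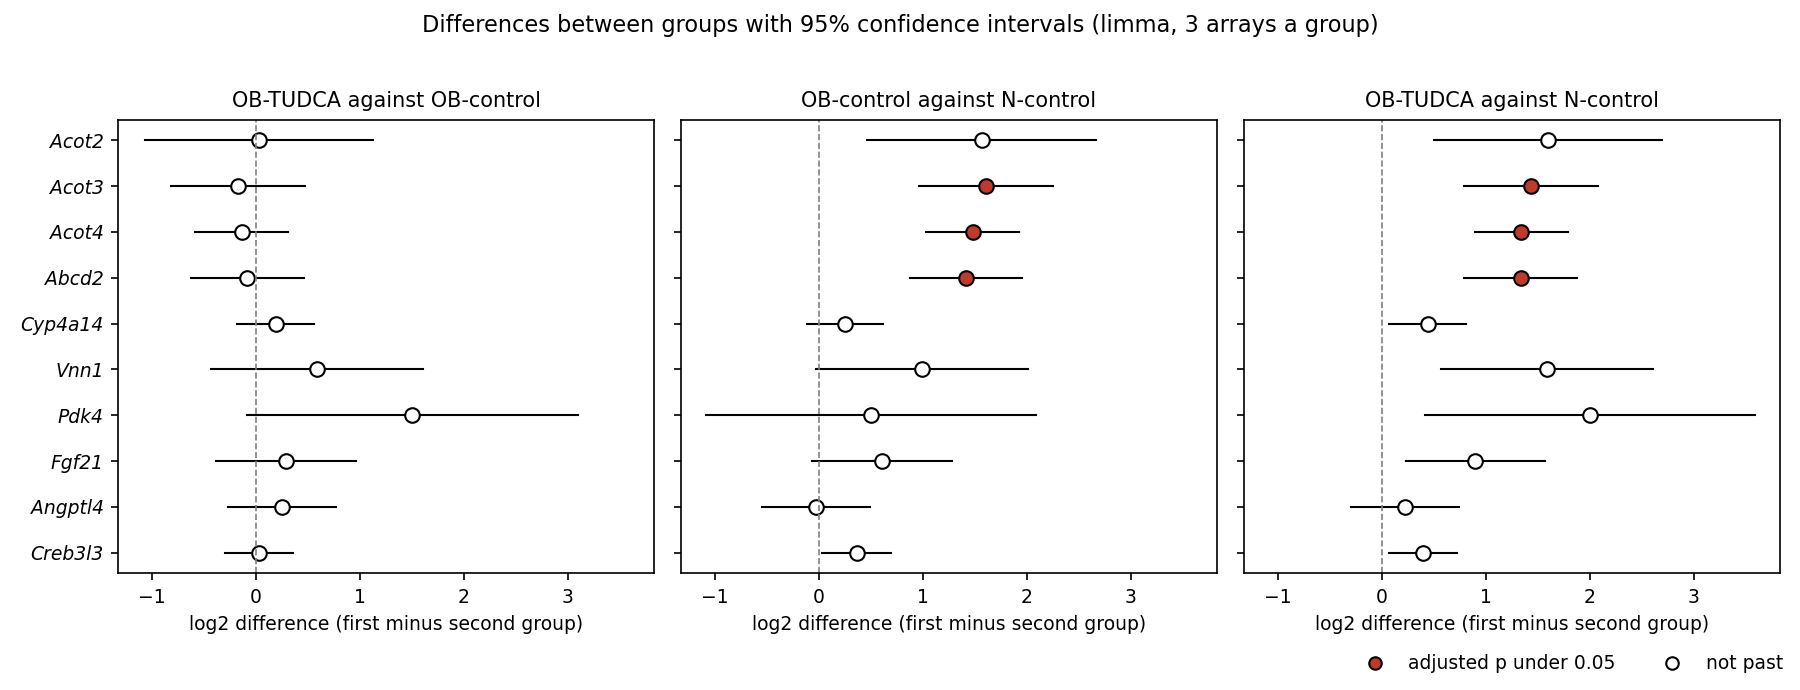
Log2 difference (horizontal axis, first group minus second group) of each Ppara-induced gene in OB-TUDCA against OB-control, OB-control against N-control and OB-TUDCA against N-control, as a point with its 95% confidence interval from limma. Filled points passed an adjusted p of 0.05, which held for Acot3, Acot4 and Abcd2 in both comparisons with N-control and for none between OB-TUDCA and OB-control, where Pdk4 had the widest interval (-0.08 to 3.10).

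Arrays of the same group differed widely in these genes. The pooled SD within groups was 1.07 for Pdk4, 0.74 for Acot2, 0.69 for Vnn1, 0.45 for Fgf21, 0.43 for Acot3, 0.36 for Abcd2, 0.34 for Angptl4, 0.29 for Acot4, 0.23 for Cyp4a14 and 0.20 for Creb3l3, against a median of 0.137 over all genes. All 10 lay above at least 80.4% of all genes in this spread. That share counts genes of low signal too, and it was not taken among genes of like signal.

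In the N-control group the genes moved together from array to array. N-control replicate 3 was the highest of the 3 arrays for 10 of 10 genes, against 31.4% of all genes, and replicate 1 was the lowest for 7 of 10, against 35.7%. Set against the N-control mean of each gene, the 10 genes averaged -0.45, -0.13 and 0.58 on N-control replicates 1, 2 and 3. The same average was 0.93, 1.11 and 1.34 on the OB-TUDCA arrays and 0.97, 0.54 and 1.12 on the OB-control arrays, so the highest lean liver was level with the lowest obese one. In the OB-control group replicate 2 was the lowest for 6 genes, against 30.8% of all genes. In the OB-TUDCA group replicate 3 was the highest for 6, against 29.1% of all genes. The order of arrays was noticed in the data, and genes of 1 array share its RNA, so they are not independent observations.

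The core enzymes of beta-oxidation and ketone body synthesis, also induced by Ppara, followed the same arrays with smaller steps. Of 24 listed, 20 were measured, and for all 20 N-control replicate 3 was the highest and replicate 1 the lowest of the lean livers, with mean deviations of 0.24 and -0.22 from the group mean. The shares of all genes with N-control replicate 3 highest and replicate 1 lowest were 31.4% and 35.7%. OB-control replicate 2 was the lowest of its group for 18 of the 20, against 30.8% of all genes. OB-control replicate 3 was the highest for 18, against 28.1%. In the OB-TUDCA group the array means of these enzymes lay between -0.06 and 0.06 of the group mean. The 18 measured of 19 other fasting-induced genes listed, gluconeogenic and glucocorticoid-induced genes among them, had another order of means in the lean group. Their mean deviations were -0.07, 0.28 and -0.21 on N-control replicates 1, 2 and 3, and single genes ranged from -2.06 to 1.54 on replicate 3. The means were -0.16, 0.30 and -0.14 on the OB-control arrays. On the OB-TUDCA arrays they were 0.02, -0.12 and 0.10, with replicate 3 the highest, as for the 10 genes. N-control replicate 2, the array with the acinar signal, had the middle lean average over the 10 genes and the highest over the other fasting-induced genes. The part of the acinar signal in the order of arrays was not tested.

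**Figure D3:**
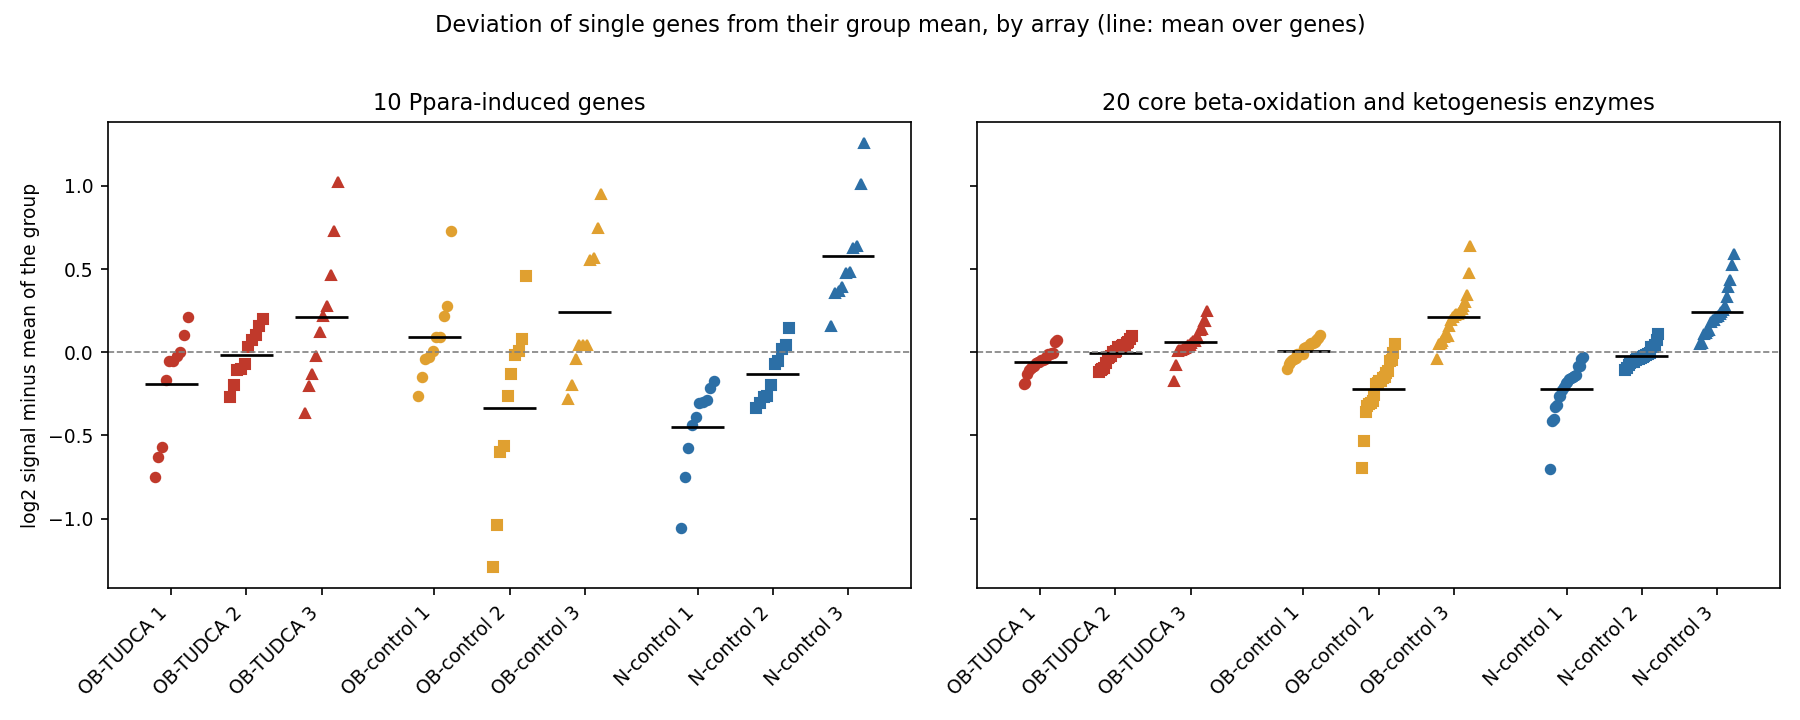
Deviation of single genes from the mean of their own group (vertical axis, log2 signal) on each of the 9 arrays, for the 10 Ppara-induced genes on the left and 20 core enzymes of beta-oxidation and ketone body synthesis on the right, with the mean over genes as a line. All points of N-control replicate 3 are above 0 in both panels, with means of 0.58 and 0.24, and those of OB-control replicate 2 have means of -0.34 and -0.22.

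Ppara itself read 9.49, 9.52 and 9.79 in OB-TUDCA livers, 9.53, 9.29 and 9.35 in OB-control livers, and 9.15, 9.22 and 9.30 in N-control livers. The OB-TUDCA arrays were above the N-control arrays, and the lowest OB-control array was level with the highest N-control one. The difference of OB-TUDCA from N-control was 0.38 (SE 0.10, adjusted p = 0.0908, limma), that of OB-control from N-control 0.16 (adjusted p = 0.583), and that of OB-TUDCA from OB-control 0.21 (adjusted p = 0.457). Rxra, the partner with which it binds DNA, was 0.21 higher in OB-TUDCA than in N-control (adjusted p = 0.218).

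Among 13 measured receptors, partners and coregulators of 15 listed, Lpin1 alone passed between OB-TUDCA and OB-control. In that comparison 11 means were higher and 2 lower, against 53.6% and 46.3% of all genes. The 2 lower were those of Ppargc1a (difference -0.63, adjusted p = 0.224, limma) and Ppargc1b (-0.44, adjusted p = 0.251). Both were lower without overlap of the arrays, against 6.53% of all genes. Lpin1 encodes lipin-1, a phosphatidate phosphatase that also acts in the nucleus as a coactivator of Ppara. It read 10.61, 10.82 and 10.79 in OB-TUDCA livers, 8.81, 8.65 and 9.33 in OB-control livers, and 9.65, 9.51 and 9.05 in N-control livers. The OB-TUDCA arrays were above all others, and OB-control and N-control overlapped. Lpin1 rose by 1.81 (SE 0.19, adjusted p = 0.0192, limma), or 3.51 fold, in OB-TUDCA as compared to OB-control, and by 1.34 (adjusted p = 0.00876) as compared to N-control. The first call was lost on leaving out N-control replicate 2, replicate 1 of OB-control, or replicate 2 or 3 of OB-TUDCA (0.0545 to 0.125), and the second was kept without any 1 array. Hnf4a, a nuclear receptor of hepatocytes, rose by 0.58 in OB-TUDCA as compared to N-control (adjusted p = 0.0451), a call kept without N-control replicate 3 or OB-control replicate 2 and lost without any 1 of the other 7 arrays (0.0639 to 0.157).

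Other genes that Ppara induces likewise had calls against N-control and none between the obese groups. Of 39 listed, 35 were measured. In OB-control, 3 of 35 passed against N-control, all higher, against 0.456% of all genes, with a median difference of 0.35. In OB-TUDCA 5 of 35 passed, all higher, against 1.35% of all genes, with a median of 0.61. Leaving out 1 array gave 1 to 4 in OB-control, the lowest without N-control replicate 1. In OB-TUDCA it gave 2 to 8, with 2 left without N-control replicate 1 or OB-TUDCA replicate 2, 3 without N-control replicate 2, OB-control replicate 1 or OB-TUDCA replicate 1 or 3, and 8 without N-control replicate 3. Between OB-TUDCA and OB-control none passed and the median was 0.05. Cd36, which takes up fatty acids, read 10.87, 11.09 and 11.06 in OB-TUDCA livers, 10.92, 10.82 and 11.17 in OB-control livers, and 8.85, 9.15 and 9.81 in N-control livers. As compared to N-control it rose by 1.74 in OB-TUDCA (adjusted p = 0.00459, limma) and by 1.70 in OB-control (adjusted p = 0.00802), and both calls were kept without any 1 array. The study names Cd36 as a direct target of another transcription factor, Pparg. Which factor lay behind the calls of this list was not tested. The lipoprotein receptor gene Vldlr rose by 1.45 in OB-TUDCA (adjusted p = 0.00318) and by 1.26 in OB-control (adjusted p = 0.00887), with the second call lost without N-control replicate 1 (0.0511). Slc25a47, a mitochondrial carrier of the liver, rose by 0.68 in OB-TUDCA (adjusted p = 0.0410) and 0.80 in OB-control (adjusted p = 0.0428), and both calls were kept without N-control replicate 2 and lost without any 1 of the other 8 arrays (0.0545 to 0.120 and 0.0657 to 0.130).

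In OB-TUDCA as compared to N-control, G0s2 and Pnpla2 passed as well. Pnpla2 encodes the triglyceride lipase of lipid droplets, and G0s2 encodes its inhibitor. G0s2 read 9.37, 9.87 and 8.61 in OB-TUDCA livers, 8.80, 8.08 and 8.70 in OB-control livers, and 7.35, 6.91 and 8.01 in N-control livers, a difference of 1.86 (SE 0.36, adjusted p = 0.0248, limma) between OB-TUDCA and N-control. This call was lost without N-control replicate 1 or 2 or OB-TUDCA replicate 1 or 2 (0.0598 to 0.106). Pnpla2 rose by 0.73 (SE 0.16, adjusted p = 0.0423), a call kept without OB-control replicate 2 or 3 or OB-TUDCA replicate 1 and lost without any 1 of the other 6 arrays (0.0769 to 0.142).

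The core enzymes had smaller median differences from N-control than the 10 genes. None of the 20 passed in any comparison. As compared to N-control, 18 had a higher mean in OB-control, against 57% of all genes, with a median difference of 0.32. In OB-TUDCA all 20 did, against 59.6% of all genes, with a median of 0.19. Between OB-TUDCA and OB-control 14 had a lower mean, against 46.3% of all genes, with a median of -0.06. Genes of a list share the same arrays, so such counts are not independent observations. Acads, the short-chain acyl-CoA dehydrogenase, had the smallest p, with 9.37, 9.35 and 9.42 in OB-TUDCA livers, 9.67, 9.43 and 9.70 in OB-control livers, and 8.78, 9.06 and 9.19 in N-control livers (OB-control against N-control 0.59, adjusted p = 0.0548).

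The 18 measured of 19 other fasting-induced genes had median differences near 0. They were 0.08 for OB-TUDCA against OB-control, -0.12 for OB-control against N-control and 0.00 for OB-TUDCA against N-control. These medians covered differences in both directions. With OB-TUDCA set against OB-control, 13 means were up and 5 down. At an unadjusted p under 0.05 (limma), 5 genes were up and 1 down there, beside 6.26% and 5.72% of all genes. With OB-control set against N-control, 2 were up and 4 down at that p, beside 6.55% and 5.59%. Between OB-TUDCA and N-control 2 genes, Fkbp5 and Foxo1, passed the adjusted test, both up, beside 1.35% of all genes. Fkbp5, a gene that glucocorticoids induce, read 9.32, 9.55 and 10.08 in OB-TUDCA livers, 7.35, 8.00 and 8.34 in OB-control livers, and 6.57, 6.60 and 7.97 in N-control livers. It rose by 2.61 (SE 0.39, adjusted p = 0.0101, limma), or 6.09 fold, in OB-TUDCA as compared to N-control, which was kept without any 1 array, and its difference of 1.75 from OB-control did not pass (adjusted p = 0.101). Foxo1, a transcription factor of the fasted liver, rose by 0.58 in OB-TUDCA as compared to N-control (adjusted p = 0.0197), a call lost without N-control replicate 1, 2 or 3 or OB-TUDCA replicate 3 (0.0555 to 0.0832).

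**Figure D4:**
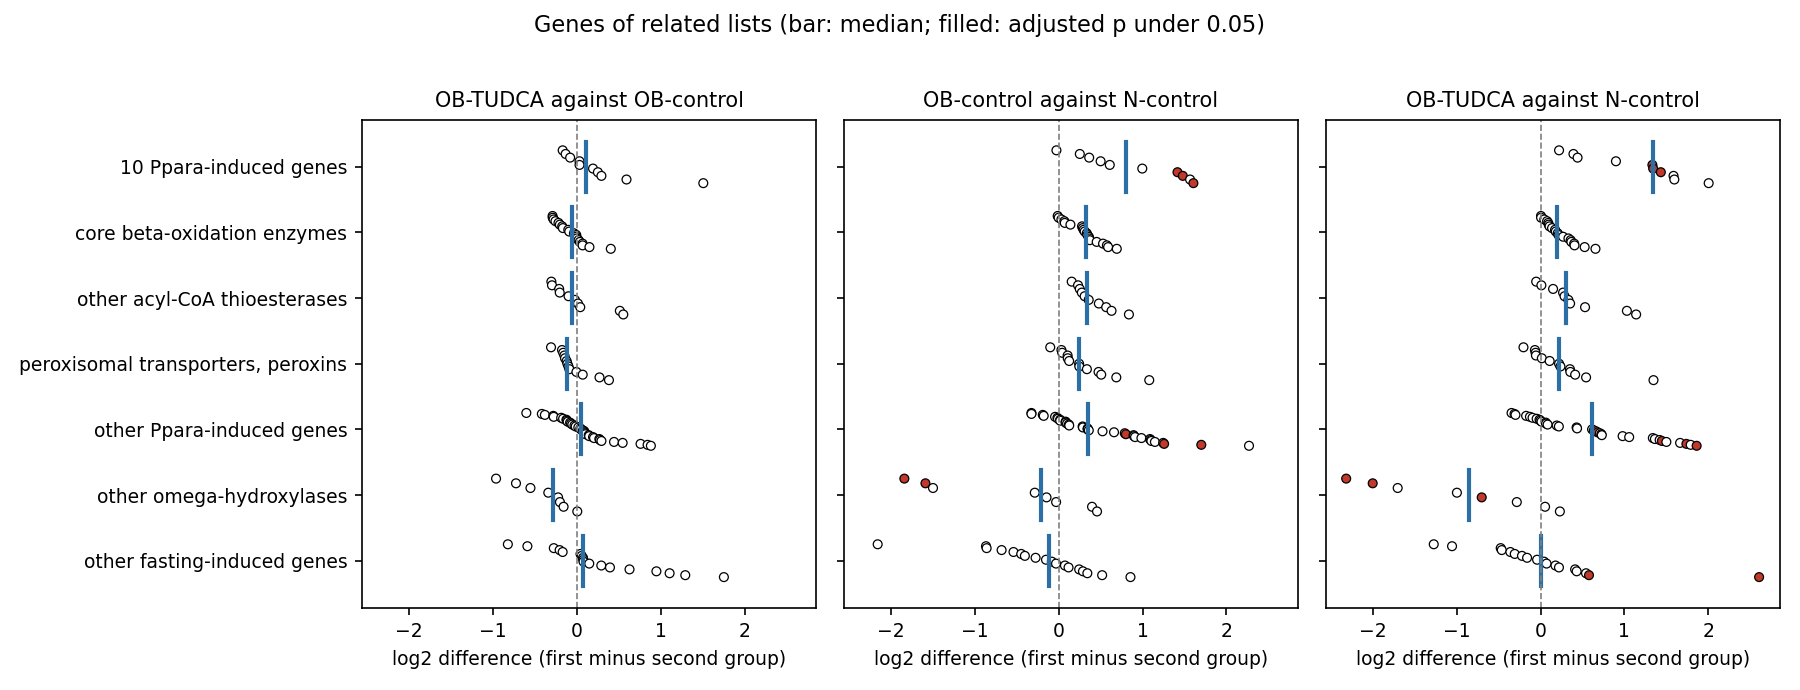
Log2 differences (horizontal axis, first group minus second group) of the 10 Ppara-induced genes and of single genes in 6 related lists, with the median of each list as a bar and genes past an adjusted p of 0.05 filled. The medians of the 10 genes were 0.11, 0.80 and 1.34 in the 3 comparisons, and those of the core beta-oxidation enzymes were -0.06, 0.32 and 0.19.

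The pattern shared by the 10 genes over the 9 arrays was taken as the mean of their values, each gene centred on its own mean. The genes followed this pattern with r of 0.97 for Vnn1, 0.91 for Cyp4a14, 0.90 for Acot2 and Acot4, 0.89 for Creb3l3, 0.86 for Fgf21, 0.85 for Pdk4, 0.84 for Acot3, 0.81 for Abcd2 and 0.52 for Angptl4, each being part of the mean. The 3 genes outside the set with the highest Pearson r to it were Crat (0.991), Aifm2 (0.990) and Rnf10 (0.977). These coefficients describe 9 arrays in 3 groups, and the points share the differences between the groups.

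Crat encodes carnitine acetyltransferase of mitochondria and peroxisomes. It read 9.25, 9.55 and 9.83 in OB-TUDCA livers, 9.25, 8.85 and 9.71 in OB-control livers, and 7.43, 7.86 and 9.08 in N-control livers. N-control replicate 3 was again far above the other lean livers and above OB-control replicate 2. Crat differed from N-control by 1.42 in OB-TUDCA (SE 0.38, adjusted p = 0.0876, limma) and by 1.15 in OB-control (adjusted p = 0.253). Aifm2, an oxidoreductase that keeps coenzyme Q reduced, averaged 7.10 in OB-TUDCA livers, 6.92 in OB-control livers and 6.23 in N-control livers. It was 0.87 higher in OB-TUDCA than in N-control (adjusted p = 0.0205, limma) and 0.69 higher in OB-control (adjusted p = 0.100). The first call was lost without N-control replicate 1 or 2 or OB-TUDCA replicate 2 or 3 (0.0708 to 0.0768).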

How the data were processed

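Liver RNA was measured on 9 arrays, 3 per group, and groups and replicate numbers were taken from the labels. Per the labels, the authors used RMA in Affymetrix Expression Console (version not given), and the log2 values they deposited for each probe set were used unchanged. No column was left out (0 unused). The precision of arrays is limited by their number, 3 per group. Of 35556 probe sets, 21789 are annotated with 1 symbol, 1621 with several and 12146 with none. Probe sets of 1 symbol were averaged (999 genes had more than 1), which gave 19938 genes, and no filter on low values was applied.

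The 3 group means were fitted to all 9 arrays with limma 3.58.1 in R 4.3.3 (6 residual and 3.33 prior degrees of freedom), with two-sided contrasts and Benjamini-Hochberg adjustment over all genes. This replaced SAM, the study's method, which rests on relabelled arrays and was not run. The code of the fit was tested on simulated data. The R package data.table (version 1.17.8) read the tables, and matplotlib 3.10.9 under Python 3.11.15 drew the figures. Replicates are labelled biological, and where they are not separate mice, p-values measure technical spread only.

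The 10 genes, 12 related lists and 10 marker lists were chosen with earlier results of these data known. Named are the 10 genes, up to 6 genes per list past the threshold in any comparison (with none, the gene with the smallest p), and the 3 genes most like the mean pattern. Promoter windows came from RefSeq (GRCm38.p6). Alternatives were a filter on low signals, other normalizations, another variance prior, array weights and only the 2 groups compared. Further ones were other handling of probe sets, a t-test, a replicate block, and leaving out single arrays.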

Additional observations from a re-analysis of the deposited data

How the results depend on the processing

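A filter on low signals, quantile normalization once more, subtraction of array medians, a trended robust prior, array weights and other handling of probe sets kept all counts of the 10 genes at 0 between OB-TUDCA and OB-control and at 3 against N-control in either obese group. With a fit of just the 2 groups at hand, which leaves fewer arrays for the spread, the count between OB-control and N-control was 0 (Acot3, Acot4 and Abcd2 at adjusted p = 0.126, 0.0764 and 0.124), and Acot3 was lost between OB-TUDCA and N-control (0.0888). With a t-test, which was not the study's way to select array genes, both counts were 0 after adjustment. At an unadjusted p under 0.05 of the t-test they were 3 (OB-control) and 5 (OB-TUDCA). Leaving out 1 array gave 0 to 3 genes called for OB-control against N-control and 0 to 5 for OB-TUDCA against N-control.

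The labels do not say that a replicate number marks anything shared. Deviations of arrays with the same number correlated at 0.06, -0.08 and 0.21 between OB-TUDCA and OB-control, at 0.12, 0.05 and 0.21 between OB-control and N-control, and at 0.09, 0.09 and 0.11 between OB-TUDCA and N-control. Since no comparison had every pair above 0.1, the arrays were not treated as paired. With the replicate number as a block, 0 genes passed between OB-TUDCA and OB-control and 2 between OB-control and N-control (Acot3 lost, adjusted p = 0.0757). Between OB-TUDCA and N-control 4 passed with this block (Acot2 at 0.0276 and Vnn1 at 0.0216 gained, Acot3 at 0.0523 lost), and the count over all genes went to 430 higher and 441 lower, against 269 and 377 without the block. Each array correlated best with its own number in both comparisons with N-control but not between OB-TUDCA and OB-control.

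Small differences changed sign. With array weights, Acot2 was -0.13 between OB-TUDCA and OB-control and Angptl4 was 0.092 between OB-control and N-control. With 1 array left out, differences between OB-TUDCA and OB-control ranged from -0.49 to 0.51 for Acot2, -0.31 to 0.013 for Acot3, -0.21 to 0.15 for Abcd2, -0.0085 to 0.66 for Fgf21 and -0.031 to 0.069 for Creb3l3. Those between OB-control and N-control ranged from -0.030 to 1.14 for Pdk4 and -0.20 to 0.29 for Angptl4. Over all genes, OB-TUDCA against OB-control gave 23 higher and 37 lower calls, 50 and 81 with a filter on low signals, 45 and 52 after quantile normalization and 0 with only these groups (at unadjusted p-values under 0.05 there were 1056 and 1004), and OB-control against N-control gave 91 and 98, against 170 and 188 with array weights. The cause of these shifts was not tested.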
